A study of Mus musculus with 4 samples.

Results

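The respiratory chain genes are the genes whose symbols name subunits of complexes I to V of oxidative phosphorylation, cytochrome *c*, and the assembly factors that share those symbols. They were chosen by symbol alone, as rows beginning with Ndufa, Ndufb, Ndufc, Ndufs, Ndufv, Uqcr, Cox4 to Cox8 or Atp5, the rows *Sdha* to *Sdhd* with the Sdhaf genes, *Cyc1* and *Cycs*, and the mitochondrial mt-Nd, mt-Co, mt-Atp and mt-Cytb genes, leaving out symbols that contain -ps. This gave 116 of the 54920 genes listed. Of these, 103 lie in the nuclear genome and 13 in mitochondrial DNA. By complex, 43 belong to complex I, 4 to complex II, 10 to complex III, 23 to complex IV and 19 to complex V. *Cycs* stands apart, and 16 are assembly factors or copies of subunit genes annotated as processed pseudogenes.

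The chain passes electrons from NADH through complex I, or from succinate through complex II, to coenzyme Q, complex III, cytochrome *c* and complex IV, where oxygen is reduced. Complexes I, III and IV pump protons, and complex V uses the gradient to make ATP. Complex II is built from nuclear genes only, whereas the other complexes need subunits from both genomes, so that the cell must make mRNAs in the nucleus and in the mitochondrion. The mitochondrial mRNAs are cut from long transcripts of the circular genome. Spermatogonial stem cells are known to lean on glycolysis, and respiration gains weight as spermatogonia differentiate. CNOT3 is a subunit of the CCR4-NOT complex, which shortens the poly(A) tails of cytoplasmic mRNAs.

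RNA-seq of ID4-EGFP+ spermatogonia from mouse testes at postnatal day 8 was available for 2 control and 2 *Cnot3*-cKO libraries. Control mice were *Cnot3* flox/flox; *Id4-eGfp* without *Ddx4*-creER (wild-type in the labels), and *Cnot3*-cKO mice were *Cnot3* flox/flox; *Ddx4*-creER; *Id4-eGfp*, with a Cre driven by the germ cell gene *Ddx4*. All mice, controls included, received 4-OHT, which activates creER, from day 1 to day 3 after birth. The study calls its replicates biological, but neither the labels nor the methods say whether each library came from its own animals or from pooled litters, so the p-values measure only the spread between these libraries.

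The libraries held 22192964 to 43378493 counted reads, with the smaller totals in *Cnot3*-cKO. *Cnot3* itself, with 2362 and 2114 reads in the controls, had 435 and 571 in *Cnot3*-cKO (log2 fold change -1.48, standard error 0.13, adjusted p = 1.48e-05). Germ cell markers were abundant in every library, with *Dazl* at 2024 to 2634 CPM (counts relative to the TMM-scaled library total). Their summed level was lower in *Cnot3*-cKO, at 6421 and 6879 CPM in controls against 5892 and 6127 CPM, and of the 14 pan-germ cell genes 3 were called lower and 1 higher. Somatic markers differed between the groups. All 12 Sertoli cell markers were higher in *Cnot3*-cKO, and their summed level was 289 and 276 CPM in controls against 966 and 1009 CPM in *Cnot3*-cKO. All 6 tested Leydig cell markers were higher as well (389 and 340 against 886 and 953 CPM), as were 7 of 8 macrophage markers (259 and 167 against 560 and 457 CPM). The list for differentiating spermatogonia moved the other way, with 5 of 7 genes lower and 0 higher. The list for undifferentiated spermatogonia was mixed. In it 4 of 12 genes were higher, among them *Id4* and *Gfra1*, and 3 were lower, among them *Lin28a* and *Zbtb16*. Of 6 peritubular myoid markers 1 was higher, and of 6 endothelial markers 2 were, with 0 lower in either list. Of all tested genes, 6.21% were called higher and 4.70% lower. None of the Sertoli cell or macrophage markers was at 0 in any library. The part of these differences in the values below was not tested, and in bulk RNA fewer cells of a type and less RNA per cell cannot be told apart.

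Of the mitochondrial genes, 7 have near-identical copies annotated in a block of the nuclear genome, the only region searched for copies. The copies lie side by side on chromosome 1 of GRCm38 between 24611535 and 24616197, on the reverse strand. Over the bases compared, 5 copies had 0 differences from the mitochondrial gene, the copy of *mt-Nd3* had 1 in 345 and the copy of *mt-Co1* had 6 in 492. The first 60 bases of *mt-Co2* (mitochondrial DNA, 7013 to 7696, forward strand) and of its copy *Gm28661* (chr1:24614885-24615565), and of *mt-Nd3* (9459 to 9806) and its copy *Gm28438* (chr1:24612775-24613119), are shown because they make visible how little separates a gene from its copy. A capital marks a base that differs between gene and copy.
mt-Co2: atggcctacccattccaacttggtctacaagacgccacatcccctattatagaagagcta
Gm28661: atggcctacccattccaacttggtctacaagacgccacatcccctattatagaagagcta
mt-Nd3: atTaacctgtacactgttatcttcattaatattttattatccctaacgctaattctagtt
Gm28438: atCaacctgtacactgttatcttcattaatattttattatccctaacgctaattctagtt
The *mt-Co2* lines hold no capital, so a read from this stretch has no base that assigns it to either genome. The *mt-Nd3* lines differ at a single base near the start.

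Of all 50-base windows of *mt-Co2*, 100% also occurred in another annotated transcript, and the share was 99.9% for *mt-Co3*, 99.5% for *mt-Atp6*, 98.8% for *mt-Nd4l* and 98.0% for *mt-Nd3*. It was 62.2% for *mt-Nd4* and 51.1% for *mt-Co1*. For the rest the share was between 0 and 8.19%. Reads of the first 5 genes went mostly to the copies. In control 1, *mt-Co2* had 764 reads and *Gm28661* 18767, *mt-Co3* had 1535 and *Gm28437* 45073, and *mt-Atp6* had 370 and *Gm10925* 18557. Over the 4 libraries the copy took 96.1% of the pair's reads for *mt-Co2*, 96.5% to 96.8% for *mt-Co3* and 97.4% to 98.1% for *mt-Atp6*. For *mt-Co1* the copy *Gm29216* took 7.09% to 8.70%. Windows of *mt-Co1* also occurred in *Gm13340* and *Gm11512*, and those of *mt-Co2* in *Gm13341*. Reads on these further genes were not counted in the pairs. How the authors' counting treated reads that match several places is not stated, so levels of the mitochondrial genes with copies are uncertain. *mt-Co1* alone made up 70.8% to 77.0% of the reads on mitochondrial members.

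**Figure D1:**
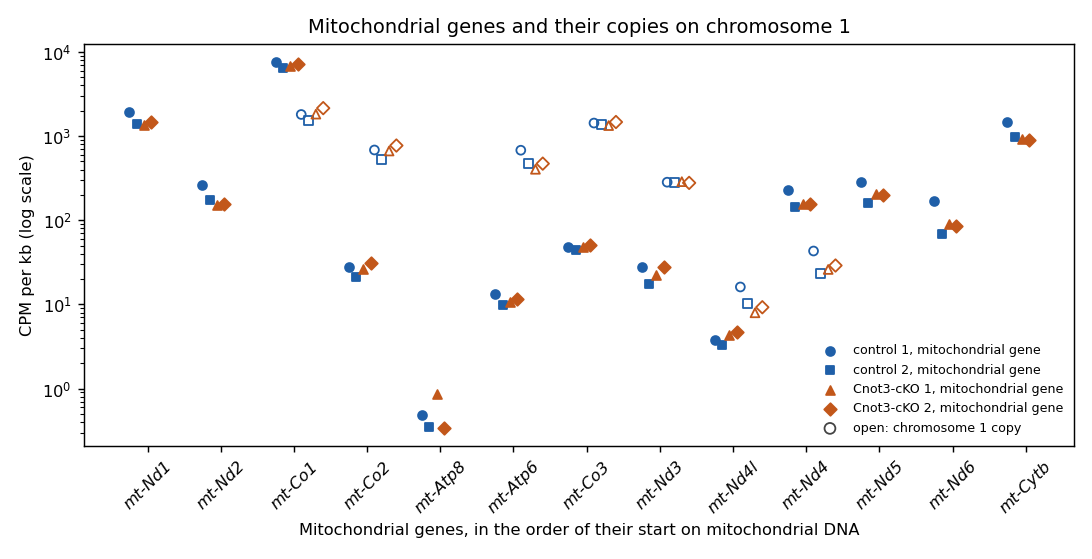
CPM per kb of gene length (log scale) for the 13 mitochondrial genes in each library (filled points) and for the 7 copies on chromosome 1 (open points). For *mt-Co2*, *mt-Atp6*, *mt-Co3*, *mt-Nd3* and *mt-Nd4l* the open points lie above the filled ones in all 4 libraries, and for *mt-Co1* and *mt-Nd4* below them.

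Promoters are shown next for the 3 nuclear members with the lowest fold changes among those that passed the test below. NRF1, GABPA (an ETS factor) and YY1 are textbook regulators of nuclear respiratory genes. RefSeq promoters (GRCm38.p6, 250 bases before to 50 after the start) were found for 81 of the 103 nuclear members, 86 promoters in all. The NRF1 motif GCGCNTGCGC, read on both strands, was present in 22 of them (25.6%) against 4.59% of all 32817 promoters. The ETS motif CCGGAAG was present in 22 (25.6%) against 8.86%, and the YY1 motif AAGATGGCG in 8 (9.30%) against 1.40%. NRF1 and ETS matches fell together in 5 promoters, and no matches of different motifs overlapped. Each of the following promoters holds an ETS match on either strand, in capitals. They are *Uqcr11* (chr10:80406772-80407071), *Uqcrh* (chr4:116075021-116075320) and *Atp5e* (chr2:174464052-174464351), all on the reverse strand.
Uqcr11: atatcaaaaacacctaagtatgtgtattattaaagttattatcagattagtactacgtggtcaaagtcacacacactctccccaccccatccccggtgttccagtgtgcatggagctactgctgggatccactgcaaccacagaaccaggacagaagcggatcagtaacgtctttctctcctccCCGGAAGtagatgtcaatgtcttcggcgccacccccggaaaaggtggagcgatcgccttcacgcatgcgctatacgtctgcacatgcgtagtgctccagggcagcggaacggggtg
Uqcrh: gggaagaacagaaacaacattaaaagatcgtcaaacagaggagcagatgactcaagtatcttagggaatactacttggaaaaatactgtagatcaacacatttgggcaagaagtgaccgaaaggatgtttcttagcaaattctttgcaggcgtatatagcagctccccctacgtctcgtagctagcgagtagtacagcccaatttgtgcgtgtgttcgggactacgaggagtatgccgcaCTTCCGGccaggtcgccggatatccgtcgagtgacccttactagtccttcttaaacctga
Atp5e: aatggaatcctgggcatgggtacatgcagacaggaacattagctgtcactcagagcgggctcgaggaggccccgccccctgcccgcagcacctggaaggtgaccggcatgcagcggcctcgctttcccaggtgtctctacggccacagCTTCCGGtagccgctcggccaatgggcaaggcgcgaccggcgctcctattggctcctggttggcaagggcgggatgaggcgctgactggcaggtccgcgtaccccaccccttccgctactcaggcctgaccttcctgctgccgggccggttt
In all 3 the ETS match lies upstream of the start, farthest from it in *Atp5e* and nearest in *Uqcrh*. Of the other members that passed the test, *Sdhaf2* also held an ETS match and *Ndufa4* held no match of any motif. No promoter was found for *Atp5mpl*. A match describes letters and not binding.

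Nuclear and mitochondrial members were then compared between *Cnot3*-cKO and control. The whole set moved little. Of the 111 members with enough reads to be tested, 0 were higher and 6 were lower in *Cnot3*-cKO with edgeR's quasi-likelihood test at an adjusted p under 0.01, while 6.21% of all 23952 tested genes were higher and 4.70% lower. At the 2-fold limit of the study 0 members changed, against 4.03% of all genes higher and 0.735% lower. The 6 members are 5.41% of those tested, close to the background share. By unadjusted p under 0.05, 3 members were higher and 36 lower, but the share of all genes at that limit was not counted. DESeq2 found 0 members higher and 7 lower at an adjusted p under 0.01. Of the 39712 genes with a DESeq2 p-value, 3.98% were higher and 4.18% lower. At an adjusted p under 0.05, 2 members were higher and 21 lower, or 18.9% lower against 9.46% of all genes, and 1.80% higher against 11.1%.

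The libraries were also compared by position. Both *Cnot3*-cKO libraries lay below both controls in 45 of 111 members (40.5%, against 28.6% of all tested genes) and above both in 8 (7.21%, against 30.5%). The median log2 fold change was -0.13 for nuclear members and -0.10 for mitochondrial members, and 0.0089 over all tested genes. These signs depended on the scaling. When libraries were scaled to equal reads of pan-germ cell genes, the list whose sum was lower in *Cnot3*-cKO, the medians became 0.020 and 0.033, and the median of all tested genes 0.15. Relative to that median, nuclear members were at -0.13 and mitochondrial members at -0.12, close to the -0.14 and -0.11 of the main scaling. Leaving out *Cnot3*-cKO 1 removed *Sdhaf2* from the 6 lower members, and leaving out *Cnot3*-cKO 2 kept only *Uqcr11*, *Uqcrh* and *Atp5e* of the 6. Those 3 passed in 13 of 14 alternatives at the same limit, all but the pan-germ cell scaling, under which 0 of the 6 passed while each kept a negative value.

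**Figure D2:**
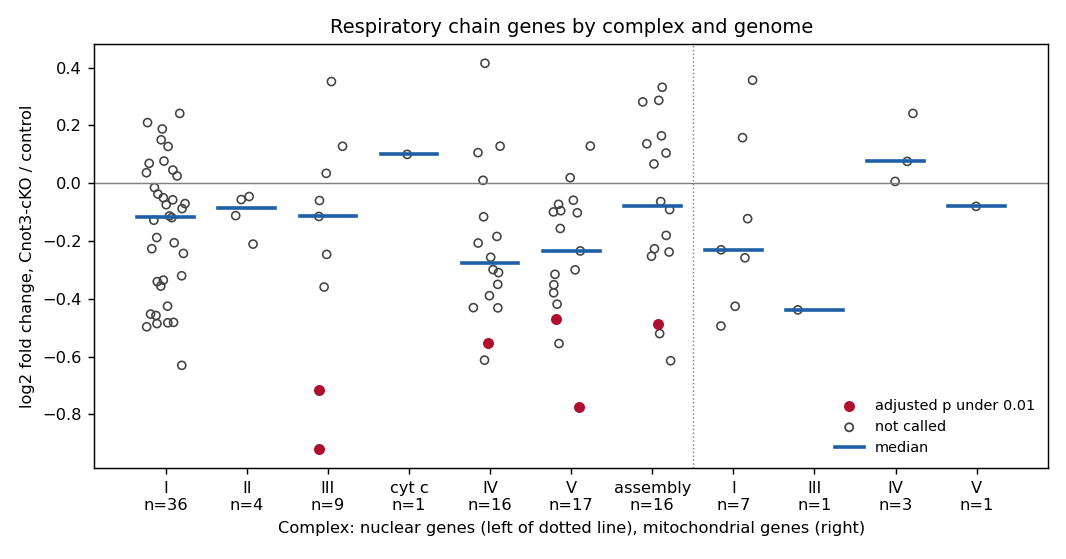
The log2 fold change of each of the 111 tested members by complex, for nuclear genes (left of the dotted line) and mitochondrial genes (right), with group medians as blue lines. The 6 genes called lower (red) are in complexes III, IV and V and among the assembly factors, and no group median exceeds 0.10 or falls under -0.44.

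The 2 controls differed from each other in these genes by larger medians than the groups did. Control 2 was higher than control 1 in 86 of 99 nuclear members (median log2 difference 0.21) and lower in all 12 tested mitochondrial members (median -0.52), while the median over all tested genes was -0.014. The *Cnot3*-cKO libraries differed by medians of -0.069 and 0.078. Without control 1 the mitochondrial median was 0.13 and the nuclear median -0.28, with 28 members lower and 2 higher, beside 9.13% of all genes lower and 8.08% higher under the same setting. Without control 2 the medians were -0.37 and -0.027, with 14 members lower and 2 higher, beside 7.01% and 7.20% of all genes. The direction of the mitochondrial median thus depended on which control was used.

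Reads were then summed over each genome. Nuclear members took 0.638% and 0.734% of the counted reads of control libraries, against 0.668% and 0.637% of the *Cnot3*-cKO reads. Mitochondrial members took 1.62% and 1.27% in controls and 1.40% and 1.47% in *Cnot3*-cKO. Both *Cnot3*-cKO libraries lay between the controls for the mitochondrial share. Nuclear member reads per 1000 mitochondrial reads numbered 394 and 579 in the control libraries, against 478 and 433 after deletion. The log2 ratio of nuclear to mitochondrial reads was -1.07 ± 0.39 in controls and -1.14 ± 0.10 in *Cnot3*-cKO (SD, n = 2 per group), a difference of -0.072 with an exact two-sided permutation p of 1. With 2 libraries against 2 the smallest p possible is 0.333. The difference was within the spread of the controls, and its sign turned (0.15) when the mitochondrial sum was limited to genes that share under 10% of their windows with another gene.

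**Figure D3:**
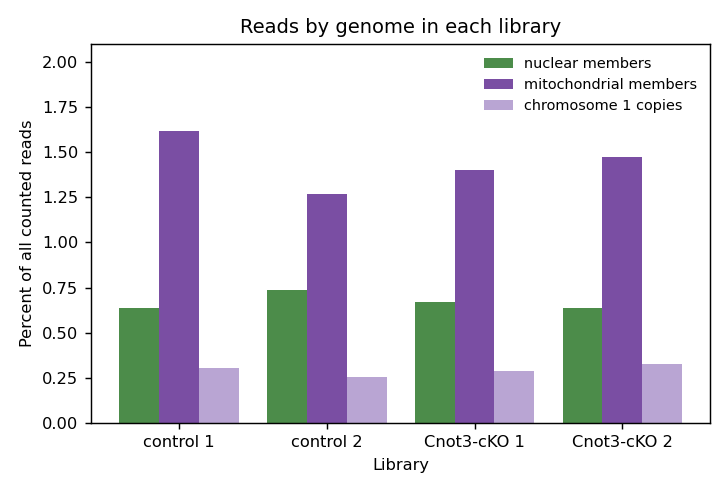
Percent of all counted reads on the 103 nuclear members, the 13 mitochondrial members and the 7 chromosome 1 copies, by library. Control 1 has the highest mitochondrial bar and control 2 the lowest, with both *Cnot3*-cKO libraries between them.

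Of the 13 mitochondrial genes, 12 were tested and 0 passed an adjusted p of 0.01. *mt-Atp8*, a small complex V subunit, had 2 to 4 reads per library, at the floor of 3 counts. On mitochondrial DNA it lies between *mt-Co2* and *mt-Atp6*, whose copies are 233 bases apart on chromosome 1. That gap was not compared with *mt-Atp8*, so its low count may not reflect its level. *mt-Co1*, the catalytic subunit of complex IV, was at 11647 and 9830 CPM in controls and 10486 and 11087 CPM in *Cnot3*-cKO. The groups overlapped, and its log2 fold change was 0.0064 ± 0.079 (standard error). *mt-Cytb*, the mitochondrial subunit of complex III, was at 1690 and 1128 CPM against 1043 and 1037 CPM. Both *Cnot3*-cKO libraries were lower, but control 2 lay near them, and the log2 fold change of -0.44 ± 0.14 had an adjusted p of 0.0385.

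*mt-Nd2*, a membrane subunit of complex I, was at 270 and 179 CPM in controls and 156 and 163 CPM in *Cnot3*-cKO (log2 fold change -0.49, standard error 0.14, adjusted p = 0.0295). It and *mt-Cytb* were the mitochondrial members with both *Cnot3*-cKO libraries below both controls, 16.7% of those tested against 28.6% of all genes. *mt-Nd1*, its neighbour, was at 1846 and 1345 CPM against 1312 and 1408 CPM, and the groups overlapped. *mt-Nd6*, encoded on the opposite strand from the other members, spread most between controls, at 87.3 and 35.6 CPM against 47.2 and 44.3 CPM. *mt-Nd5* was at 516 and 294 against 376 and 369 CPM, and *mt-Nd4* at 313 and 199 against 214 and 215 CPM. In all of these the *Cnot3*-cKO libraries were closer to each other than the controls were.

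The genes with chromosome 1 copies are given as pairs. In 5 of the 7 the copy had more reads than the gene in all libraries, while *mt-Co1* and *mt-Nd4* kept most of the pair's reads. Adding gene and copy, the log2 difference between *Cnot3*-cKO and control means was 0.0088 for *mt-Co3*, 0.015 for *mt-Nd3*, 0.029 for *mt-Co1* and 0.26 for *mt-Co2*. It was -0.37 for *mt-Atp6*, -0.22 for *mt-Nd4* and -0.33 for *mt-Nd4l*. The copies alone were tested with the other genes and 0 of 7 passed. The lowest adjusted p among them was 0.0613, for *Gm10925*. Counted without their copies, *mt-Co2*, *mt-Co3*, *mt-Atp6*, *mt-Nd3* and *mt-Nd4l* had log2 fold changes of 0.24, 0.076, -0.080, 0.16 and 0.36, with adjusted p from 0.372 to 0.852.

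Complex I oxidizes NADH and is the largest complex of the chain. All 36 of its nuclear subunits were tested and 0 were called. The median log2 fold change was -0.12. In 11 subunits both *Cnot3*-cKO libraries lay below both controls (30.6%, against 28.6% of all tested genes). In 2 they lay above (5.56%, against 30.5%). *Ndufa2*, an accessory subunit, had the lowest value, with 29.5 and 38.2 CPM in controls and 24.01 and 19.8 CPM in *Cnot3*-cKO (log2 fold change -0.63, standard error 0.16, adjusted p = 0.0145). Its groups did not overlap. *Ndufv1*, which carries the flavin that accepts electrons from NADH, had the highest, at 165.4 and 215 CPM against 231 and 219 CPM (0.24, standard error 0.11, adjusted p = 0.150). *Ndufa7* had the most reads per kb of transcript, at 123 CPM per kb in controls and 119 in *Cnot3*-cKO. Of the other core subunits, *Ndufs1* had a log2 fold change of 0.025 and *Ndufv2* of -0.36.

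Complex II, which also works in the citric acid cycle, had 4 tested subunits and 0 called. *Sdha*, its flavoprotein, was at 360 and 322 CPM in controls and 313 and 276 CPM in *Cnot3*-cKO, the lowest fold change of the complex and the highest level per kb (118 CPM per kb in controls). The log2 fold change of -0.21 ± 0.091 had an adjusted p of 0.126. *Sdhb*, the iron-sulfur subunit, was at 66.2 and 88.3 CPM against 72.7 and 77.0 CPM, with overlapping groups. All 4 subunits had values from -0.21 to -0.046. With no mitochondrial subunit, this complex has no partner in the other genome.

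Complex III passes electrons from coenzyme Q to cytochrome *c*, and held the member with the lowest log2 fold change of the whole set. All 9 of its nuclear members were tested and 2 were called lower, beside 4.70% of all tested genes. In 4 both *Cnot3*-cKO libraries lay below both controls (44.4%, against 28.6% of all tested genes). In 1 they lay above (11.1%, against 30.5%). *Uqcr11*, a small subunit (chromosome 10, 80402997 to 80406830), was at 33.2 and 56.3 CPM in controls and 23.9 and 23.5 CPM in *Cnot3*-cKO. The groups did not overlap although the controls were far apart (log2 fold change -0.92, standard error 0.20, adjusted p = 0.00606). *Uqcrh*, the hinge subunit (chromosome 4, 116066965 to 116075071), was at 127 and 153 CPM against 98.5 and 72.6 CPM (-0.72, standard error 0.14, adjusted p = 0.00292). It also had the most reads per kb of the complex, 256 in controls and 156 in *Cnot3*-cKO. *Uqcrfs1*, the Rieske iron-sulfur protein that does the electron transfer, stood on the other side at 43.6 and 50.9 CPM against 62.2 and 58.5 CPM (0.35, standard error 0.11, adjusted p = 0.0463). The core proteins *Uqcrc1* and *Uqcrc2* had log2 fold changes of 0.034 and 0.13, with overlapping groups. *Cyc1*, the heme subunit, had -0.36 (adjusted p = 0.0275), and 98.4 and 116 CPM against 86.5 and 80.4 CPM. *Cycs*, the soluble cytochrome *c*, was at 34.9 and 40.1 CPM against 45.5 and 35.02 CPM.

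Complex IV hands electrons to oxygen. Of its 20 nuclear members 16 were tested and 1 was called lower, beside 4.70% of all tested genes. The median log2 fold change of its nuclear members was -0.28, the lowest among the complexes. In 10 of 16 both *Cnot3*-cKO libraries lay below both controls (62.5%, against 28.6% of all tested genes). In 1 they lay above (6.25%, against 30.5%). *Ndufa4*, now placed in this complex despite its name (chromosome 6, 11900292 to 11907497), was at 61.4 and 70.7 CPM in controls and 48.2 and 42.0 CPM in *Cnot3*-cKO (-0.55, standard error 0.12, adjusted p = 0.00582). *Cox7b* had the highest log2 fold change of all nuclear members, with 35.8 and 33.6 CPM against 49.3 and 43.3 CPM (0.42, standard error 0.12, adjusted p = 0.0274). Its groups did not overlap, but it missed the 0.01 limit. *Cox4i1*, the most abundant per kb at 410 CPM per kb in controls and 355 in *Cnot3*-cKO, was at 273 and 355 CPM against 274 and 269 CPM.

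Some complex IV subunits have forms that differ between tissues. *Cox4i2*, *Cox6a2* (the heart and muscle form), *Cox8b* and *Ndufa4l2* had 0 to 11 reads in any library and were not tested, while *Cox6a1* had 48.9 and 64.8 CPM in controls and *Cox8a* 50.2 and 56.0 CPM. The testis forms were present at different levels. *Cox7b2* was at 28.7 and 30.1 CPM in controls and 25.6 and 26.2 CPM in *Cnot3*-cKO, close to *Cox7b* in controls. *Cox6b2* was at 5.11 and 3.85 CPM against 3.001 and 2.86 CPM, the lowest log2 fold change of the complex (-0.61, standard error 0.27, adjusted p = 0.141), beside *Cox6b1* at 69.6 and 78.3 against 61.5 and 51.5 CPM. *Cox8c* stayed near 1 CPM in all libraries, from 0.628 to 1.15 CPM. Per kb in controls, *Cox7a2* had 101 CPM and *Cox7a1* 6.39 CPM, and *Cox7a2l*, which helps join complexes III and IV, had 102 CPM.

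Complex V makes ATP. All 17 of its nuclear members were tested and 2 were called lower, beside 4.70% of all tested genes. The median log2 fold change was -0.23. In 10 of 17 both *Cnot3*-cKO libraries lay below both controls (58.8%, against 28.6% of all tested genes). In 0 they lay above (0%, against 30.5%). *Atp5e*, the epsilon subunit (chromosome 2, 174461072 to 174464105), was at 40.3 and 57.0 CPM in controls and 30.4 and 26.5 CPM in *Cnot3*-cKO (-0.78, standard error 0.16, adjusted p = 0.00468). *Atp5mpl*, a small membrane subunit (chromosome 12, 111961375 to 111966977), was at 80.6 and 90.2 CPM against 64.8 and 58.4 CPM (-0.47, standard error 0.11, adjusted p = 0.00748). Neither pair of groups overlapped. The catalytic subunits stood near 0. *Atp5b*, the beta subunit and the most abundant nuclear member per kb (480 CPM per kb in controls, 450 in *Cnot3*-cKO), was at 869 and 971 CPM against 882 and 841 CPM, and *Atp5a1*, the alpha subunit, had a log2 fold change of -0.10. *Atp5c1*, the gamma subunit, had the highest value at 0.13. The 3 genes for the same subunit *c* protein, *Atp5g1*, *Atp5g2* and *Atp5g3*, had -0.10, -0.23 and 0.019, and *Atp5g2* shares 38.3% of its windows with other genes.

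**Figure D4:**
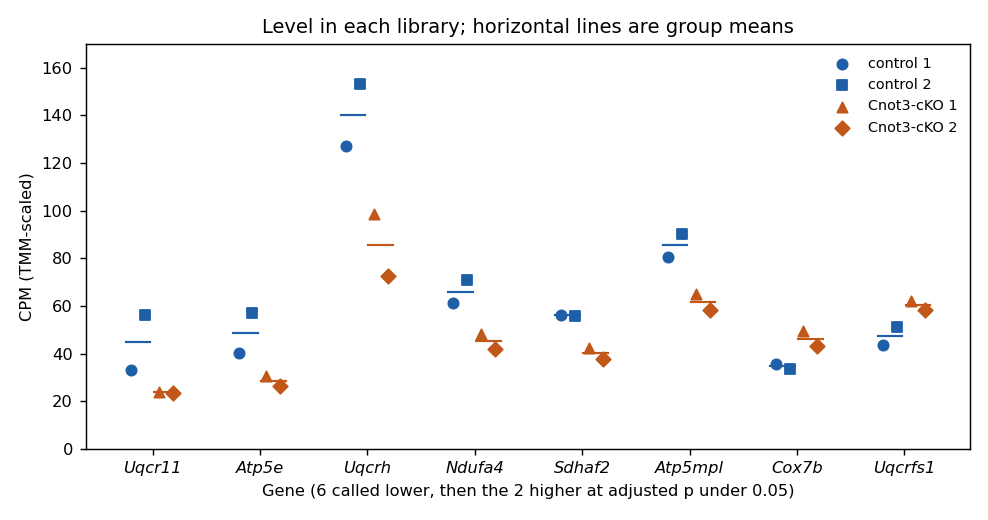
CPM in each library for the 6 members called lower, followed by *Cox7b* and *Uqcrfs1*, which were higher at an adjusted p under 0.05 only. Horizontal lines are group means, and in the first 6 genes both *Cnot3*-cKO points lie below both control points.

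Among the assembly factors and pseudogene copies, all 16 were tested and 1 was called lower, beside 4.70% of all tested genes. *Sdhaf2*, which helps attach the flavin to *Sdha* protein (chromosome 19, 10500534 to 10526142), was at 56.3 and 55.8 CPM in controls and 42.2 and 37.9 CPM in *Cnot3*-cKO (-0.49, standard error 0.11, adjusted p = 0.0082). Its controls agreed most closely of the 6 called members. The extremes of the group were copies of subunit genes, *Cox6c2* at -0.61 (adjusted p = 0.0724) and *Ndufb4c* at 0.33 (adjusted p = 0.479). They share 52.7% and 100% of their windows with *Cox6c*, *Ndufb4* or other genes, so their reads are uncertain. *Cox6c2* also had the most reads per kb of the group, 33.1 CPM per kb in controls. The 8 Ndufaf factors of complex I ranged from -0.25 (*Ndufaf7*) to 0.28 (*Ndufaf3*), and 0 were called.

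Except for *Sdhaf2*, the called members were short transcripts, of 421 to 612 bases. Nuclear members with at least an average of 3 on the log2 CPM scale were set beside other protein-coding genes above the same minimum, by length class. Levels above that minimum were not matched. Up to 750 bases, the median log2 fold change was -0.34 for 35 members and -0.18 for 140 other genes. Both *Cnot3*-cKO libraries lay below both controls in 24 of these members (68.6%) and 60 of the other genes (42.9%). Over 750 and up to 1500 bases the medians were -0.074 for 27 members and -0.068 for 994 other genes, and over 1500 and up to 3000 bases -0.095 for 17 and -0.041 for 3288. The share with both *Cnot3*-cKO libraries below was 29.6% of members and 36.0% of other genes in the first of these classes and 41.2% and 37.7% in the second. Over 3000 bases it was 16.7% of 6 members and 46.2% of 5608 other genes. The short genes also differed between the controls. Control 2 exceeded control 1 by a median of 0.27 in the shortest members and 0.19 in other genes of that length, and by -0.0052 in other genes over 3000 bases. With a trend on length removed from each library, 5 members were lower, beside 5.20% of all tested genes. All 5 were among the 6, *Atp5mpl* being the one lost.

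**Figure D5:**
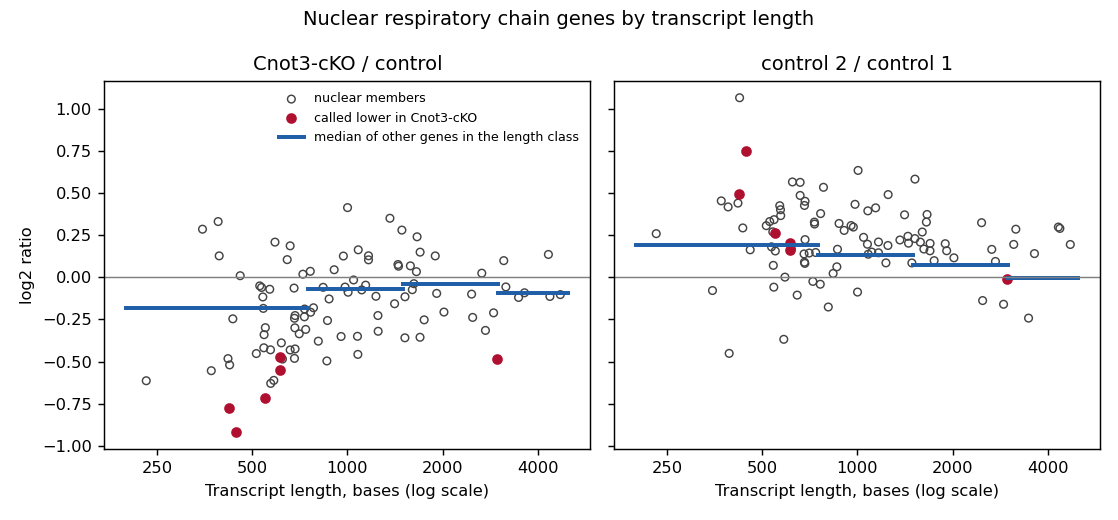
The log2 ratio of *Cnot3*-cKO to control (left) and of control 2 to control 1 (right) against transcript length (log scale) for the 99 tested nuclear members, with the 6 called members in red. Blue lines are medians of other genes in 4 length classes, at -0.18, -0.068, -0.041 and -0.090 on the left and 0.19, 0.13, 0.076 and -0.0052 on the right.

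The genes around the chain were read from lists set by function. Other assembly and copper or heme delivery factors had 38 tested genes, 0 higher and 2 lower, beside 6.21% and 4.70% of all genes. *Coa5* fell from 113 and 109 CPM to 70.5 and 75.5 CPM (-0.60, standard error 0.093), and *Cox19* from 21.8 and 26.4 CPM to 13.9 and 13.9 CPM (-0.80, standard error 0.16). Both encode factors for complex IV assembly. Expression of mitochondrial DNA and RNA had 34 tested genes, 0 higher and 2 lower, *Lrpprc* (402 and 418 CPM against 308 and 322 CPM) and *Grsf1* (261 and 268 against 208 and 198 CPM), with log2 fold changes of -0.38 and -0.38. LRPPRC stabilizes mitochondrial mRNAs and GRSF1 acts in mitochondrial RNA granules. The nuclear regulators (10 genes) and coenzyme Q synthesis (13 genes) had 0 called in either direction, with medians of -0.090 and -0.076.

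Carriers and porins of the mitochondrial membranes were tested as a further list. Of 8 tested genes 4 rose and 0 fell, beside 6.21% and 4.70% of all genes, with a median log2 fold change of 0.47. By position, 5 genes were higher in each *Cnot3*-cKO library than in either control, and 2 were lower in each. The most abundant gene, *Slc25a31*, was among the lower ones, at 325 and 365 CPM in controls against 292 and 294 CPM in *Cnot3*-cKO. Summed over the list, the groups overlapped, at 863 and 930 CPM against 936 and 928 CPM. *Slc25a4*, an adenine nucleotide carrier of the inner membrane, rose from 27.8 and 27.3 CPM to 58.0 and 53.6 CPM (log2 fold change 1.02, standard error 0.11). *Ucp2*, an inner membrane carrier of the uncoupling protein family, rose from 8.76 and 6.66 CPM to 26.7 and 21.8 CPM (1.65, standard error 0.19). The porins *Vdac3* and *Vdac1* rose by 0.56 and 0.63. Among the 18 citric acid cycle genes 1 rose and 2 fell, beside 6.21% and 4.70% of all genes, and the median log2 fold change was 0.035. Both *Cnot3*-cKO libraries lay below both controls in 6 of them (33.3%, against 28.6% of all genes). They lay above both in 6 (33.3%, against 30.5%). *Idh2*, the mitochondrial NADP-dependent isocitrate dehydrogenase, rose from 10.9 and 9.77 CPM to 26.3 and 24.4 CPM, while *Ogdh* and *Mdh2* fell by 0.56 and 0.44 on the log2 scale. The summed Sertoli, Leydig and macrophage markers rose in the same libraries, as given above, and their part in these values was not tested. The called genes of these lists had adjusted p from 9.31e-05 to 0.00678. Without *Cnot3*-cKO 1 *Lrpprc*, *Grsf1* and *Vdac1* missed the limit (adjusted p 0.0688, 0.0287 and 0.0796), and without *Cnot3*-cKO 2 *Lrpprc*, *Grsf1* and *Mdh2* did (0.0278, 0.0877 and 0.0505). Under pan-germ cell scaling *Cox19*, *Ogdh*, *Lrpprc*, *Mdh2* and *Grsf1* also missed it while keeping a negative value, with adjusted p of 0.0107, 0.0109, 0.0868, 0.0918 and 0.108, and *Coa5* passed.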

How the data were processed

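Stranded total RNA libraries of sorted ID4-EGFP+ cells were sequenced (2 control, 2 *Cnot3*-cKO). The deposited values are whole-number counts per gene. To make them, the authors aligned reads with STAR to mm10 and counted them with featureCounts, without normalization. The strand setting and the handling of reads with several matches are not stated.

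Counts were compared with edgeR 4.0.16 (R 4.3.3) using TMM scaling, its expression filter, the quasi-likelihood F test and Benjamini-Hochberg adjustment over all 23952 tested genes, with calls at an adjusted p under 0.01. The common biological coefficient of variation was 0.145. In simulated data for this comparison (23358 and 23362 genes fitted), 200 of 200 genes changed 4-fold and 140 of 200 changed 2-fold were recovered, with 0 and 1 false calls. The simulation gave every gene the common spread and changed only genes above a minimum level. It held no further difference between libraries of a group, such as that between the controls. Every tested member changed less than 2-fold, and recovery of such changes was not simulated. A count of 3 was taken as the floor. Levels per kb use the longest principal transcript of GENCODE M21, and a model with a long tail lowers them. DESeq2 1.42.0, other scalings and filters, a replicate block and leaving out each library were alternatives. Removing a length trend, adding the chromosome 1 copies and limiting mitochondrial genes to unshared ones were chosen after seeing the data.

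Named genes were *Cnot3*, the mitochondrial members, for each complex the highest and lowest fold change and the highest level per kb, members called at an adjusted p under 0.01, tissue isoforms, and up to 4 called genes of each list. Core subunits beside them, and *Slc25a31*, were chosen after their values were seen. Members and lists were chosen with earlier results of these data known. Further replicates named by the study were not analysed here. Python 3.11 drew the figures.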

Additional observations from a re-analysis of the deposited data

How the results depend on the processing

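With 0 members called higher and 6 called lower, the counts kept within 1.5 times under DESeq2 size factors, upper quartile scaling, scaling without the mitochondrial genome, a mean count of at least 50, DESeq2 and the length correction. Scaling by library size only gave 3 lower, beside 3.25% of all genes tested under that setting. Pan-germ cell scaling gave 2 higher (*Uqcrfs1* and *Cox7b*) and 0 lower, beside 8.10% and 1.67% of all genes. With no filter 20 were lower, beside 5.05% of 39712 genes. An adjusted p under 0.05 gave 2 higher and 21 lower, and adding the 2-fold limit 0 lower. The cause of these shifts was not tested, apart from the limits, which change the count by construction. Leaving out each library in turn gave 0 to 2 higher and 4 to 28 lower, a median of -0.37 to 0.13 for mitochondrial members and -0.28 to -0.027 for nuclear members, and a difference in the log2 nuclear to mitochondrial read ratio of -0.35 to 0.21. Omitting a library also changes how the spread is estimated, and the lone library is assumed to vary like the other group. *mt-Nd5*, not called with all libraries, ranged from -0.48 to 0.32 and passed with opposite signs without either control.

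Pan-germ cell scaling turned the medians to 0.033 (mitochondrial) and 0.020 (nuclear). The read ratio difference became 0.15 with mitochondrial genes that share under 10% of windows, and -0.094 with the chromosome 1 copies added. Same-numbered libraries share only a number. Their deviations correlated at 0.052 over 23952 genes, with 1 independent pair. The replicate block gave 10 members lower, beside 6.83% of all tested genes, and left the ratio difference at -0.072.

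Of 768 values for 55 named genes under these alternatives, 665 kept direction and side of the threshold. Library totals differ, and the lowest members (*Cox4i2*, *Cox6a2*, *Cox8b*, *Ndufa4l2*, *mt-Atp8*) were too sparse to test.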
